A study of Mus musculus with 6 samples.

Results

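The genes described here are 53 genes whose products copy DNA or supply the nucleotides for it. They were taken by gene symbol from a fixed list, all 53 were found among the 24054 genes of the count table, and all 53 passed the filter on low counts. The table holds messenger RNA counts from mouse salivary gland, with 3 control libraries and 3 K5-RANKL libraries, each from the pooled glands of 5 mice. The K5-RANKL animals carried K5-rtTA and TetO-RANKL: the keratin 5 promoter, active in basal epithelial cells, drives a doxycycline-dependent activator, and the activator switches on a transgene for the cytokine RANKL. The controls were monogenic, and the sources used here do not say with which transgene. Doxycycline was added to the food and the water of both groups from the age of 9 weeks and was given over 2 weeks, so it is shared by all libraries. The sources used here do not name the strain, the sex or the gland (parotid, submandibular or sublingual). The question addressed is which of these genes change in level when RANKL is made in the gland.

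DNA is copied once in each cell cycle. The origin recognition complex marks start sites, CDC6 and CDT1 load the ring-shaped MCM helicase there, and CDC45 and the GINS complex then turn the loaded ring into a moving helicase. Behind it, primase and the DNA polymerases lay down new strands on the sliding clamp PCNA, while ribonucleotide reductase and thymidylate synthase feed in deoxynucleotides. Many of these genes are transcribed from E2F-bound promoters late in the gap before S phase, so that their messenger RNAs are scarce in resting tissue, and the adult salivary gland is a tissue of mostly resting secretory cells.

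Total counts lay between 13875951 and 17921815 per library, and a gene with 3 counts stood at between 0.125 and 0.295 CPM. CPM is the read count relative to the library size, here after scaling by trimmed mean of M values (TMM). Controls had TMM factors of 0.708 ± 0.0293 and K5-RANKL libraries of 1.41 ± 0.0802 (SD, n = 3 each). Without them, scaled by library totals, the 14044 genes tested had a median log2 fold change of 1.01 in place of 0.01, and 94.4% of the calls were higher in place of 51.6%, so every direction below is relative to the TMM scale. Tnfsf11, the gene for RANKL, lay between 0.939 and 3.78 CPM in controls and between 405 and 723 CPM in K5-RANKL libraries, with K5-RANKL 2 the lowest. Salivary acinar markers (Aqp5, Bhlha15, Amy1, Muc19, Smgc and Dcpp3) were present in every library, with summed levels of 29671.5 to 38081.6 CPM in controls against 1632 to 2292 CPM in K5-RANKL libraries.

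Exons of 19 of the 53 genes overlap exons of another annotated gene, and for 9 of them by at least 10% of the exon length, all on the opposite strand. The longest overlaps are of Fen1 with the antisense gene Gm10143 (78.8%), Gins2 with Gse1 (67.3%) and Chaf1a with Ubxn6 (52.5%), and those of Orc1, Orc2, Ccne2, Rfc2, Rfc4 and Rfc5 lie between 10.7% and 29.8%. The sources used here do not state the strand setting of the counting, so the values of these 9 genes are uncertain.

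Because many of these genes changed together, their promoters were searched for the E2F word, which was TTT, then any pair of C and G, then CGC (TTTCCCGC, TTTCGCGC, TTTGCCGC or TTTGGCGC), on both strands. The promoters shown are those with the most matches among called genes, ties broken by the smallest p. Each is given from 170 bases before to 30 bases after a RefSeq start in GRCm38.p6, 5′ to 3′ along the gene. Mcm7 has 2 starts, and a start with the most matches was used. The windows of Mcm7 and Cdc6 lie wholly inside the gene spans (138164583 to 138172111 and 98907709 to 98923942). Capitals mark whole matches to the E2F word, and overlapping matches were counted as 1 site. Lig1 ranked just before Cdc6 but has no whole match inside the printed bases and is not shown.
Mcm3 (chr1:20820283-20820482, minus strand): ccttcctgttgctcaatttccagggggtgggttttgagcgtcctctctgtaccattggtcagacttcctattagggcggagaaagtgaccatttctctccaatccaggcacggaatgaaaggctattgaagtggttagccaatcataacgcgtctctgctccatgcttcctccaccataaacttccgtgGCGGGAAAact
Mcm7 (chr5:138171854-138172053, minus strand): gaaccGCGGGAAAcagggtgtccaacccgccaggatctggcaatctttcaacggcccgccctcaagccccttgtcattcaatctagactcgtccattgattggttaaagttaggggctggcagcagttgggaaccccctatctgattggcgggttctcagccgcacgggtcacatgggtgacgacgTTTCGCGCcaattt
Mcm6 (chr1:128359676-128359875, minus strand): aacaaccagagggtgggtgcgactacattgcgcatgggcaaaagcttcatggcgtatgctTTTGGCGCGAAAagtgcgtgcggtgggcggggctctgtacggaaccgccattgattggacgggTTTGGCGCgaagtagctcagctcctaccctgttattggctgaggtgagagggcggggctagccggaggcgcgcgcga
Rfc3 (chr5:151651179-151651378, minus strand): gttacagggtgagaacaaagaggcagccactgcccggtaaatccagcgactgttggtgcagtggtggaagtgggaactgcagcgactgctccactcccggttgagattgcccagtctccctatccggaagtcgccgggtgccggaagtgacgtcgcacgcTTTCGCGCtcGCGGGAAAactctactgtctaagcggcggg
Mcm5 (chr8:75109339-75109538, plus strand): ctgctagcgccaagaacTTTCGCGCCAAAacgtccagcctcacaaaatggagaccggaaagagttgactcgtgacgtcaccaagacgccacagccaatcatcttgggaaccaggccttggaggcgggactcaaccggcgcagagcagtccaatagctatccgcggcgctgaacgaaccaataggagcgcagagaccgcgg
Cdc6 (chr11:98907981-98908180, plus strand): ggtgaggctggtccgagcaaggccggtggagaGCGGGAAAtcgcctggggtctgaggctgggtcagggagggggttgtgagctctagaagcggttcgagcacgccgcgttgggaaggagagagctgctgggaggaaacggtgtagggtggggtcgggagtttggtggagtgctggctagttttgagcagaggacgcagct
Mcm6 has an overlapping pair of words 110 bases before its start and another word 47 bases before it. In Mcm5 the words on the opposite strands overlap in the same way, 153 bases before the start. Mcm3 and Mcm7 each hold a word that begins 20 and 17 bases after the start, and Rfc3 has a word on either side of its start.

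RefSeq promoters, from 250 bases before to 50 after each start, were at hand for 44 of the 53 genes. Of these 44, 17 genes (38.6%) held the E2F word, beside 4.43% of the 10952 tested genes with a promoter and 2.6% of all 27025 genes with one. At least 2 sites were found in 4 of the 44 (9.09%) and in 0.192% of the tested genes. The median G and C content of the promoters was 61.7% for the 44 genes and 60.3% for the tested genes. Other promoter words of cell cycle genes were spread differently: CCAAT, the word bound by NF-Y, was in 59.1% of the 44 genes and 42.1% of the tested genes. TTTGAA, the cell cycle homology region of mitotic genes, was in 13.6% and 14.7%. On a list of 24 mitotic genes, 19 with a promoter, the shares were 5.26% for the E2F word, 78.9% for CCAAT and 68.4% for TTTGAA. The 17 genes with an E2F word had a median log2 fold change of 1.21, with 16 called higher, and the 27 without it a median of 0.74, with 21 called higher. Of all tested genes 34.2% were called higher, and the difference between genes with and without the word was not tested. Genes with high fold changes and no E2F word in the window included Mcm10, Rrm2 and Chaf1a, and Orc3 held the word and stood at 0.01. These matches describe letters in the windows and show no binding.

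**Figure D1:**
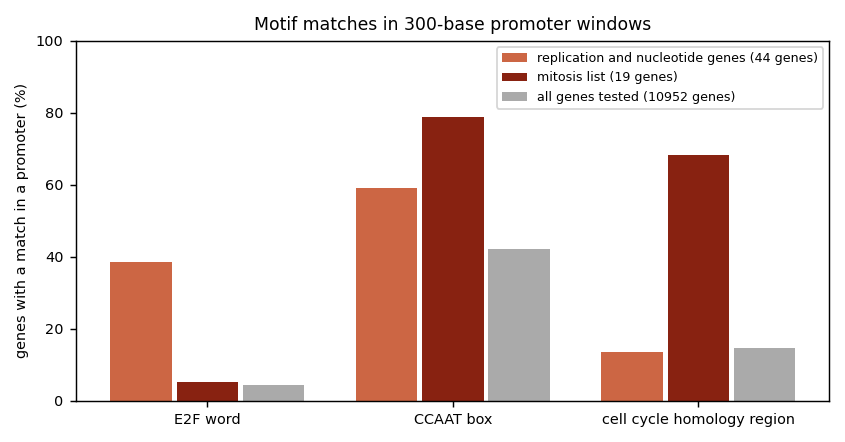
Percent of genes (y axis) with at least 1 match to each motif in a promoter window of 300 bases, for the 44 replication and nucleotide genes with a promoter, 19 mitotic genes and 10952 tested genes. The E2F word is in 38.6% of the replication and nucleotide genes against 5.26% of the mitotic genes, and TTTGAA shows the opposite order.

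Most of the DNA copying machinery was higher in K5-RANKL glands. Of the 53 genes, 45 rose, 1 fell and 7 did not pass (edgeR quasi-likelihood test, adjusted p under 0.05 over all 14044 genes). The background is wide: 66.2% of all tested genes were called, 34.2% higher and 32.1% lower. The median log2 fold change was 1.06, beside 0.01 over the whole table. At least 2-fold rises were called for 30 of the 53, where the share of all tested genes was 16.9%, and at least 4-fold rises for 5, where it was 6.65%. The 5 were Mcm10, Uhrf1, Orc1, Gins2 and Cdc6. In 45 of the 53 every K5-RANKL library lay above every control (36.3% of all tested genes), and in Orc4 and Pold2 every K5-RANKL library lay below (34.1%). Summed over the 53 genes the level was 498, 502 and 512 CPM in controls against 978, 774 and 912 CPM in K5-RANKL libraries, a ratio of means of 1.76. In a bulk library, more cells in S phase, more RNA per cell and a changed mix of cell types cannot be told apart. Where nothing in the labels says that pools came from separate cohorts, p-values measure only the spread between these pools.

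**Figure D2:**
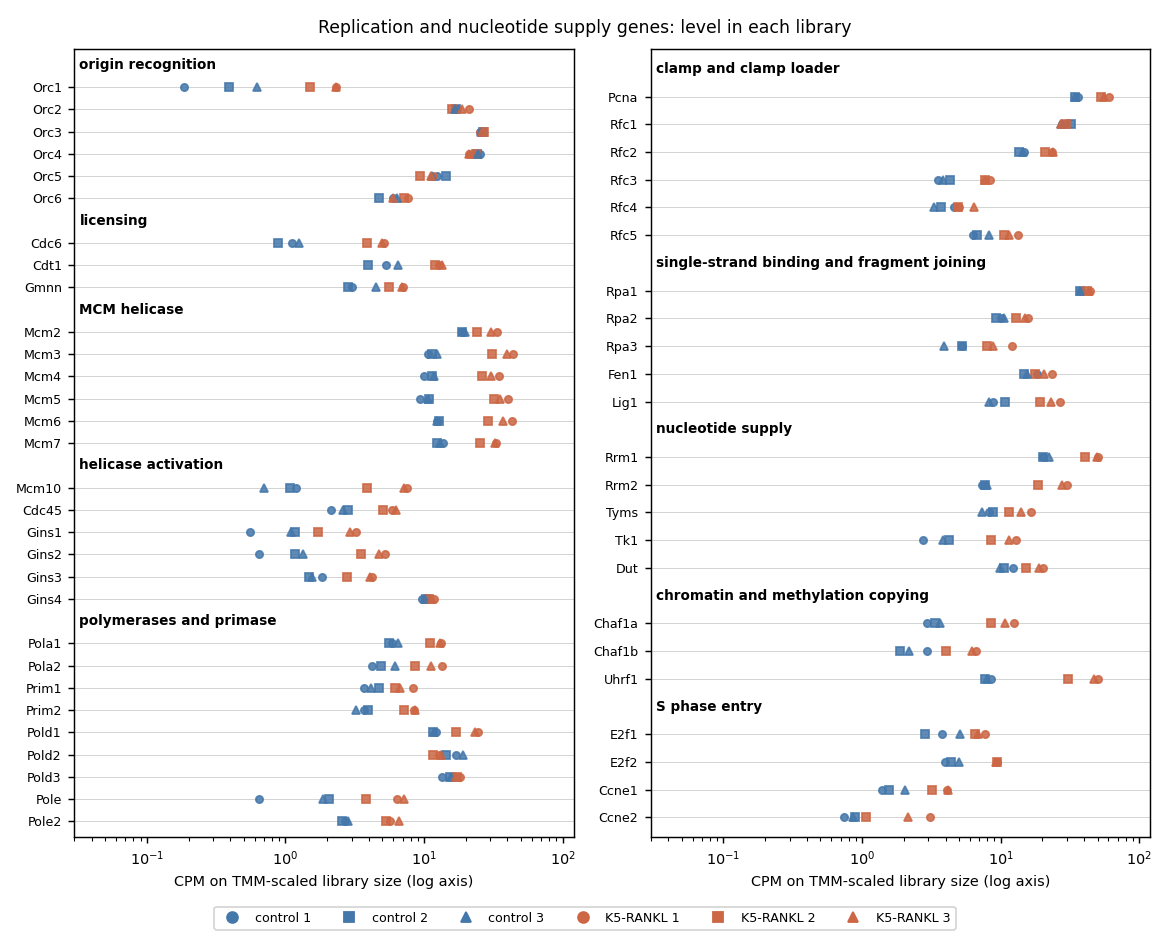
CPM on TMM-scaled library size (log x axis) of each of the 53 genes, by role, in 3 control (blue) and 3 K5-RANKL (orange) libraries; circles, squares and triangles are libraries 1, 2 and 3 of a group. The MCM genes separate into groups that do not overlap. Orc2 to Orc6 span 4.71 to 26.9 CPM, and within each of them controls and K5-RANKL libraries lie close together.

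Of the 6 origin recognition genes only Orc1 rose. ORC1 is the subunit that is made and destroyed with the cell cycle in mammalian cells, and ORC2 to ORC6 are held at steadier levels. Orc1 (Entrez 18392, chromosome 4 from 108575705 to 108616030) stood at 0.184, 0.393 and 0.626 CPM in controls and at 2.32, 1.50 and 2.33 CPM in K5-RANKL libraries. The log2 fold change was 2.31 (SE 0.38, edgeR adjusted p = 4.16e-05), called higher, and 2.82 when control 3 was left out. The control values rest on 2, 4 and 8 counts, so the size of the change is loosely set, though the groups did not overlap. The other subunits gave log2 fold changes between −0.23 and 0.27. Orc2 was 17.2, 17.0 and 16.8 CPM in controls against 21.2, 16.1 and 18.9 CPM in K5-RANKL libraries (0.14, SE 0.11, edgeR adjusted p = 0.252). Orc3 was 25.3, 26.7 and 25.7 CPM against 25.2, 26.9 and 26.3 CPM (0.01, SE 0.08, edgeR adjusted p = 0.899). Both sets of values overlap across the groups. Orc4 was 25.4, 24.2 and 24.6 CPM in controls against 21.1, 23.6 and 21.1 CPM in K5-RANKL libraries, lower in each, but did not pass (−0.18, SE 0.09, edgeR adjusted p = 0.0834). It passed as lower without K5-RANKL 2, at −0.24 (edgeR adjusted p = 0.0355), and with quality weights in voom, at −0.20 (limma adjusted p = 0.0493). Over its alternatives the adjusted p ranged from 7.88e-08 (edgeR, library totals) to 0.23, and the low end belongs to a rise. Orc5 was 12.4, 14.3 and 11.4 CPM against 11.7, 9.42 and 11.3 CPM (−0.23, SE 0.12, edgeR adjusted p = 0.114), and Orc6 5.99, 4.71 and 6.42 CPM against 7.68, 7.17 and 5.96 CPM (0.27, SE 0.16, edgeR adjusted p = 0.139). By library totals, where 83.5% of all tested genes were called higher, all 6 origin recognition genes rose, Orc4 at 0.82 and Orc5 at 0.77. Within a library, where no scaling enters, counts of Orc1 relative to the sum of Orc2 to Orc6 were 0.00467 ± 0.00262 in controls and 0.0242 ± 0.00542 in the K5-RANKL group (SD, n = 3 each), a 5.18-fold difference in means.

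All 3 licensing genes rose. Cdc6 encodes the ATPase that, with CDT1, loads the MCM ring. Cdc6 (Entrez 23834, chromosome 11 from 98907709 to 98923942) stood at 1.11, 0.884 and 1.25 CPM in controls and at 5.11, 3.85 and 4.94 CPM in K5-RANKL libraries, and rose by 2.08 (SE 0.24, edgeR adjusted p = 5.97e-07). Each K5-RANKL library held at least 3 times the level of any control. Cdt1 rose by 1.26, from 5.26 ± 1.29 to 12.8 ± 0.793 CPM, and Gmnn, encoding geminin, the inhibitor that blocks CDT1 once S phase has begun, rose by 0.89, from 3.48 ± 0.925 to 6.52 ± 0.83 CPM (SD, n = 3 each). The loader and its inhibitor thus both passed as higher, and the counts of Cdt1 relative to Gmnn were 1.52 ± 0.205 in controls against 1.97 ± 0.161 in K5-RANKL libraries.

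The 6 genes of the MCM helicase ring all rose, between 0.62 (Mcm2) and 1.80 (Mcm5). The proteins MCM2 to MCM7 form a ring with 1 copy of each. Mcm5 (Entrez 17218, chromosome 8 from 75109468 to 75128439) stood at 9.31, 10.8 and 10.7 CPM in controls and at 40.2, 32.1 and 35.2 CPM in K5-RANKL libraries. It rose by 1.80 (SE 0.11, edgeR adjusted p = 1.83e-10), the smallest p of the 53 genes, and the groups lay far apart. Mcm3, Mcm6, Mcm4 and Mcm7 rose by 1.73, 1.55, 1.46 and 1.21. Mcm2 was 18.8, 18.8 and 19.7 CPM in controls against 33.4, 24.2 and 30.5 CPM in K5-RANKL libraries, which also do not overlap, but its rise of 0.62 (SE 0.11, edgeR adjusted p = 0.000116) was the smallest of the ring.

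Set per kilobase of exon, the 6 ring genes were close together in controls, at means between 2.57 (Mcm5) and 3.08 (Mcm4) CPM per kilobase. In K5-RANKL libraries Mcm2 stood at 4.22 ± 0.675 CPM per kilobase and the other 5 at means between 6.84 (Mcm7) and 10.2 (Mcm3) CPM per kilobase. The lengths are unions of all annotated exons and may exceed the transcripts in use. The ratio of counts of Mcm2 to the mean of Mcm3 to Mcm7 needs no length and no scaling. It was 1.68, 1.60 and 1.63 in controls and 0.854, 0.845 and 0.87 in K5-RANKL libraries, 0.523 of the control mean, with spreads of 0.039 and 0.0128 (SD, n = 3 each). Mcm2 thus did not keep pace with the rest of the ring in any K5-RANKL library, K5-RANKL 2 included.

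Of the 6 genes that activate the loaded helicase, 5 rose. Mcm10, whose product helps the helicase start and is not part of the MCM ring, had the highest fold change of all 53 genes. Mcm10 (Entrez 70024, chromosome 2 from 4990724 to 5012791) stood at 1.20, 1.08 and 0.704 CPM in controls and at 7.51, 3.91 and 7.13 CPM in K5-RANKL libraries, and rose by 2.66 (SE 0.31, edgeR adjusted p = 3.52e-06). K5-RANKL 2 was the lowest of its group and still 3 times above the highest control. Gins2 (Entrez 272551, chromosome 8 from 120581266 to 120589075), a GINS subunit gene, stood at 0.645, 1.18 and 1.33 CPM in controls and at 5.23, 3.53 and 4.75 CPM in K5-RANKL libraries, and rose by 2.09 (SE 0.27, edgeR adjusted p = 2.41e-06). Gins1 and Gins3 rose by 1.49 and 1.18, and Cdc45 by 1.18. Gins4, the fourth subunit of the same complex, was 9.68, 10.3 and 10.2 CPM in controls against 11.8, 10.9 and 11.4 CPM in K5-RANKL libraries: the groups do not overlap, but the change of 0.18 (SE 0.11) did not pass (edgeR adjusted p = 0.16). In controls Gins4 was also the most abundant subunit per kilobase, at 7.45 ± 0.246 CPM against means of 0.257 to 0.621 CPM for Gins1 to Gins3. The lengths used are unions of all annotated exons, 1349 bases for Gins4 and 4097 bases for Gins2, of which 67.3% overlaps Gse1. Counts of Gins4 relative to the sum of Gins1 to Gins3 were 2.81 ± 0.332 in controls against 1.09 ± 0.237 in K5-RANKL libraries.

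Of the 9 polymerase and primase genes, 8 rose and Pold2 fell. Polymerase alpha with primase starts each new strand, polymerase epsilon extends the leading strand and polymerase delta the lagging strand. Pola1 (Entrez 18968, chromosome X from 93304766 to 93632387), the catalytic subunit of polymerase alpha, stood at 5.90, 5.60 and 6.49 CPM in controls and at 13.2, 11.0 and 13.0 CPM in K5-RANKL libraries. It rose by 1.05 (SE 0.13, edgeR adjusted p = 1.85e-06), with no overlap. Its partners Pola2, Prim1 and Prim2 rose by 1.11, 0.76 and 1.18, and the polymerase epsilon genes Pole and Pole2 by 1.92 and 1.13. Pole was at 0.645, 2.06 and 1.88 CPM in controls against 6.43, 3.80 and 7.13 CPM in K5-RANKL libraries, with control 1 the lowest.

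The subunit genes of polymerase delta did not move together. Pold1, the catalytic subunit, rose by 0.87, from 11.9 ± 0.291 to 21.6 ± 3.9 CPM (SD, n = 3 each), and Pold3 by 0.24, from 14.9 ± 1.23 to 17.5 ± 0.471 CPM. The call of Pold3 (edgeR adjusted p = 0.0418; range over its alternatives 9.14e-10 to 0.164) was lost in 8 of 15 alternatives, among them DESeq2 (adjusted p = 0.131). Without control 1, control 2 or K5-RANKL 1, 2 or 3 its fold change was 0.17, 0.26, 0.21, 0.24 or 0.25, with edgeR adjusted p of 0.164, 0.0567, 0.109, 0.0611 or 0.0698. Pold2 (Entrez 18972, chromosome 11 from 5872180 to 5878256), the subunit that holds POLD1 and POLD3 together, stood at 17.1, 14.4 and 19.1 CPM in controls and at 12.9, 11.7 and 13.2 CPM in K5-RANKL libraries. It had the lowest fold change of the 53 genes, −0.43 (SE 0.11, edgeR adjusted p = 0.00296), and turned to 0.58, called higher, by library totals. The ratio of counts of Pold1 to Pold2 within a library was 0.712 ± 0.0899 in controls and 1.70 ± 0.215 in K5-RANKL libraries, a 2.39-fold difference that no scaling touches.

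**Figure D3:**
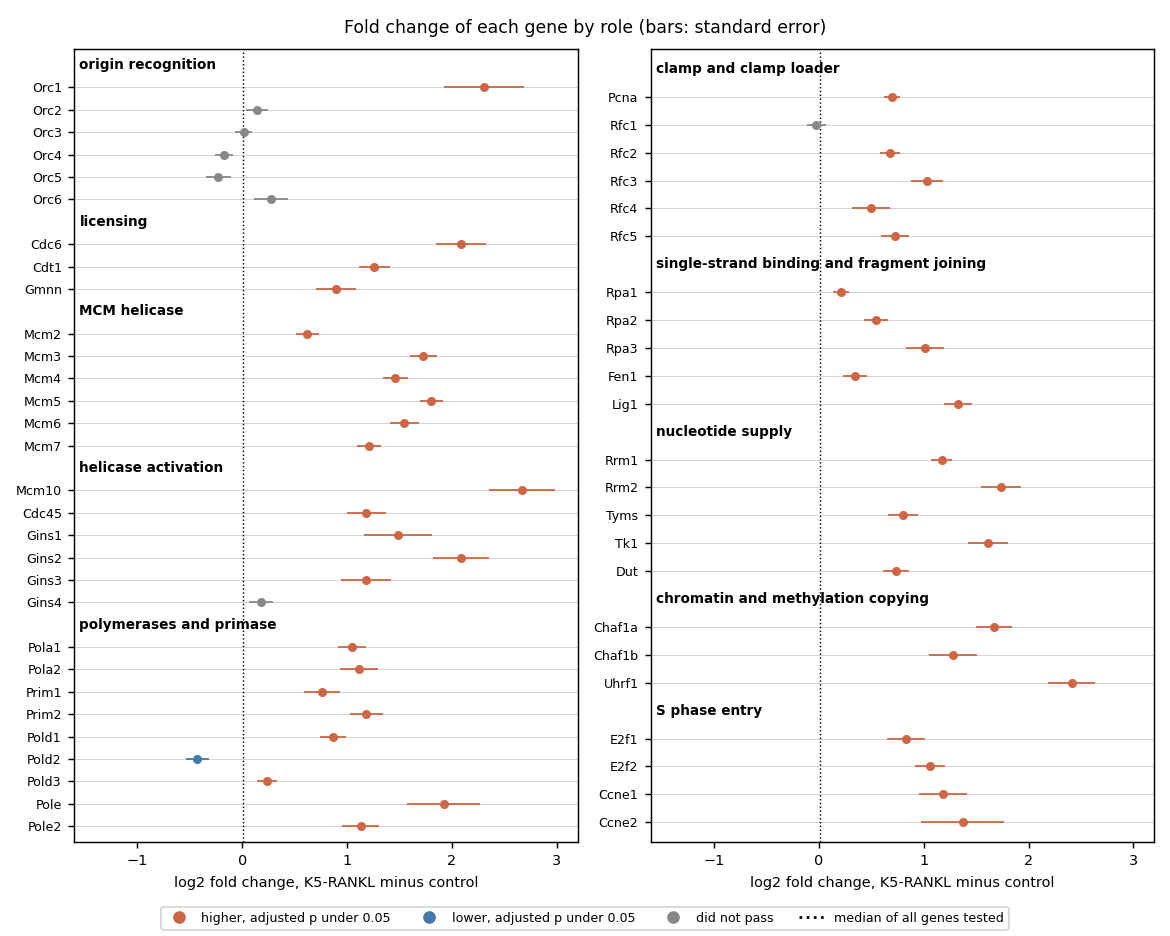
Log2 fold change (x axis, K5-RANKL minus control, TMM scale) of the 53 genes by role; points are edgeR estimates, bars are standard errors, and the dotted line is the median of all genes tested. Orange points are called higher, the single blue point, Pold2, is called lower, and the 7 grey points (Orc2 to Orc6, Gins4 and Rfc1) did not pass.

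Of the sliding clamp and its loader, 5 of 6 genes rose. Their median log2 fold change was 0.69 and that of the MCM ring 1.50, with ranges that overlap (−0.02 to 1.03 and 0.62 to 1.80), and the difference was not tested. PCNA encircles DNA and tethers the polymerases to it. Pcna (Entrez 18538, chromosome 2 from 132249286 to 132253180) stood at 35.9, 34.4 and 34.2 CPM in controls and at 60.5, 53.2 and 55.9 CPM in K5-RANKL libraries, and rose by 0.70 (SE 0.08, edgeR adjusted p = 4.89e-07). Per kilobase Pcna was the most abundant of the 53 genes in both groups, at 14.5 ± 0.404 and 23.6 ± 1.54 CPM (SD, n = 3 each). The small loader subunits Rfc2, Rfc3, Rfc4 and Rfc5 rose by 0.68, 1.03, 0.50 and 0.73. The call of Rfc4 (edgeR adjusted p = 0.0237; range over its alternatives 9.39e-08 to 0.132) was lost with DESeq2 (adjusted p = 0.0652) and without control 2, control 3 or K5-RANKL 3, at 0.47, 0.38 or 0.37 (edgeR adjusted p of 0.0666, 0.123 or 0.132). Rfc1, the large subunit of the loader, was 27.7, 32.1 and 27.3 CPM in controls against 28.8, 29.8 and 27.1 CPM in K5-RANKL libraries, overlapping throughout (−0.02, SE 0.09, edgeR adjusted p = 0.838; called higher at 0.97 by library totals). Its counts relative to the sum of Rfc2 to Rfc5 were 0.999 ± 0.113 in controls against 0.599 ± 0.0682 in K5-RANKL libraries.

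All 5 genes of single-strand binding and fragment joining rose, with wide differences in size. Lig1 (Entrez 16881, chromosome 7 from 13277175 to 13311426), the ligase that seals lagging strand fragments, stood at 8.85, 10.7 and 8.22 CPM in controls and at 26.8, 19.2 and 23.1 CPM in K5-RANKL libraries. It rose by 1.33 (SE 0.14, edgeR adjusted p = 3.91e-07), and no library of one group reached the other. Fen1, the nuclease that trims the same fragments, rose by 0.34, from 18.3, 14.8 and 15.5 CPM to 23.4, 17.5 and 20.5 CPM, and is the 1 called gene whose groups overlap. Its call (edgeR adjusted p = 0.0157; range over its alternatives 1.76e-09 to 0.0931) did not hold when control 2, control 3 or K5-RANKL 1 was left out, at 0.28, 0.31 or 0.23 (edgeR adjusted p of 0.0763, 0.0709 or 0.0931). The 3 subunits of replication protein A, which coats single-stranded DNA, rose by 0.21 (Rpa1), 0.54 (Rpa2) and 1.01 (Rpa3). Rpa1 was 37.4 ± 0.268 CPM in controls against 43.3 ± 1.16 CPM in K5-RANKL libraries, and its call (edgeR adjusted p = 0.019; range over its alternatives 5.24e-11 to 0.0708) was lost with DESeq2 (adjusted p = 0.0618) and without control 3, K5-RANKL 1 or K5-RANKL 3, at 0.20, 0.19 or 0.20 (edgeR adjusted p of 0.0536, 0.0708 or 0.0708).

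All 5 nucleotide supply genes rose. RRM1 and RRM2 are the large and small subunits of ribonucleotide reductase, which makes deoxynucleotides, and the small subunit is the one made in S phase. Rrm1 (Entrez 20133, chromosome 7 from 102441695 to 102469771) stood at 20.1, 20.3 and 22.2 CPM in controls and at 50.8, 40.3 and 49.9 CPM in K5-RANKL libraries, and rose by 1.17 (SE 0.10, edgeR adjusted p = 1.41e-08). Rrm2 stood at 7.28, 7.66 and 7.98 CPM in controls and at 30.2, 18.5 and 27.6 CPM in K5-RANKL libraries, and rose by 1.74 (SE 0.19, edgeR adjusted p = 1.37e-05). Neither gene's groups overlap, and K5-RANKL 2 was the lowest of its group for both. The counts of Rrm2 relative to Rrm1 were 0.366 ± 0.0094 in controls and 0.535 ± 0.0695 in the K5-RANKL group (SD, n = 3 each). Tk1, the thymidine kinase of dividing cells, rose by 1.61, from 3.61 ± 0.754 to 11.0 ± 2.26 CPM. Tyms, encoding thymidylate synthase, rose by 0.80, and Dut, encoding the enzyme that keeps uracil out of DNA, by 0.74.

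The 3 genes for copying chromatin and its methylation rose. CHAF1A and CHAF1B are subunits of the histone chaperone that places nucleosomes on new DNA, and UHRF1 brings the maintenance methyltransferase to it. Chaf1a (Entrez 27221, chromosome 17 from 56040416 to 56068026) stood at 2.95, 3.34 and 3.68 CPM in controls and at 12.5, 8.56 and 10.8 CPM in K5-RANKL libraries, and rose by 1.67 (SE 0.17, edgeR adjusted p = 1.92e-07). Chaf1b rose by 1.28. Uhrf1 had the second highest fold change of the 53 genes and was evenly low in controls, at 8.48, 7.66 and 7.98 CPM, against 50.6, 30.5 and 46.8 CPM in K5-RANKL libraries (2.41, SE 0.22, edgeR adjusted p = 3.35e-05). Its counts relative to Pcna were 0.231 ± 0.00692 in controls against 0.749 ± 0.152 in K5-RANKL libraries. Per kilobase Uhrf1 ranked 29 of 53 in controls and 3 of 53 in K5-RANKL libraries.

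The regulators of S phase entry, 4 of 4, also rose. E2F1 and E2F2 are activating E2F factors, and cyclins E1 and E2 drive the kinase that starts S phase. E2f2 (Entrez 242705, chromosome 4 from 136172274 to 136196057) stood at 3.96, 4.42 and 5.01 CPM in controls and at 9.38, 9.47 and 9.23 CPM in K5-RANKL libraries, and rose by 1.06 (SE 0.14, edgeR adjusted p = 3.83e-06). The K5-RANKL values of E2f2 were almost level, unlike those of most genes above, in which K5-RANKL 2 was low. E2f1 rose by 0.83, from 3.90 ± 1.12 to 7.03 ± 0.588 CPM, and Ccne1 by 1.18, from 1.66 ± 0.335 to 3.81 ± 0.519 CPM. Ccne2 was the most uneven, at 0.737, 0.884 and 0.861 CPM in controls against 3.11, 1.07 and 2.14 CPM in K5-RANKL libraries. It rose by 1.37 (SE 0.39, edgeR adjusted p = 0.00661), and by 0.97 without K5-RANKL 1.

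Ratios within a library were compared for 9 pairs or groups of genes, chosen after the values had been seen. In all 9 the K5-RANKL libraries and the controls did not overlap. Each gave p = 0.1 in a two-sided exact permutation test on log2 ratios (adjusted p = 0.1 over the 9), which is the smallest value that 3 against 3 libraries allow, so none can pass 0.05.

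**Figure D4:**
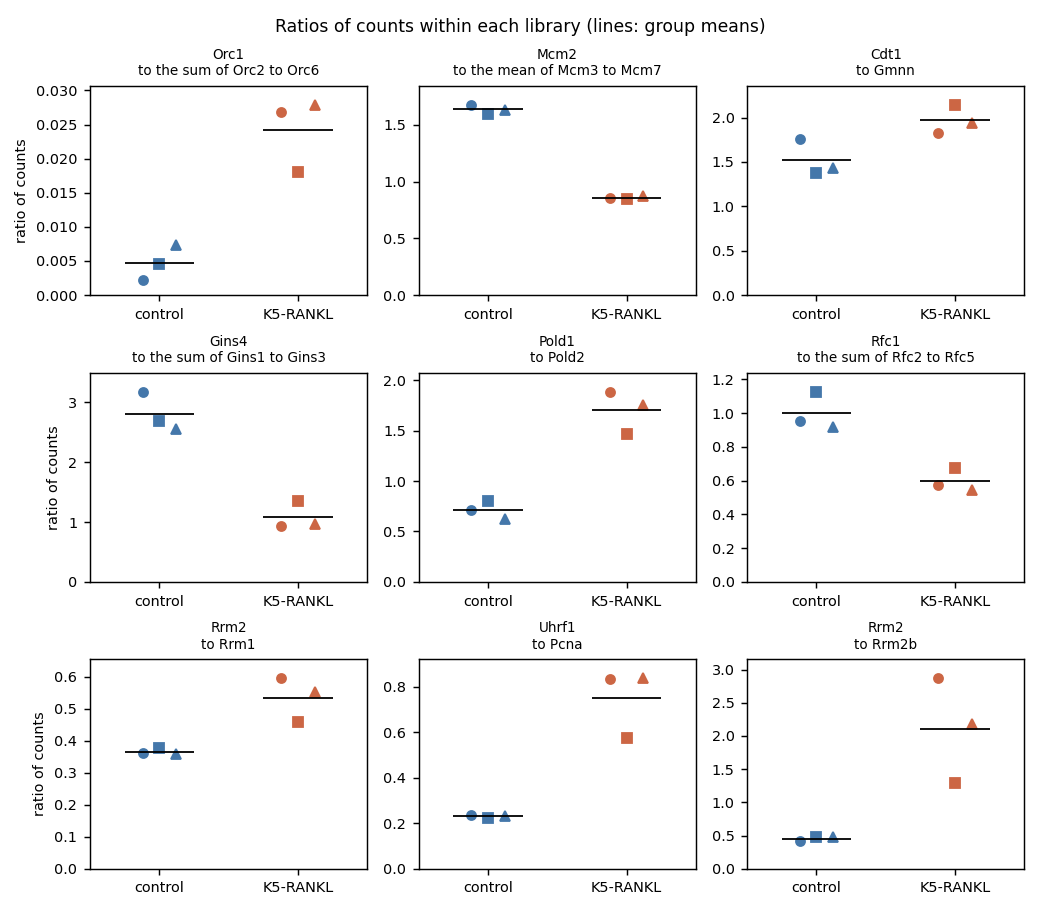
Ratio of read counts within each library (y axis, linear from 0) for 9 pairs or groups of genes, in controls (blue) and K5-RANKL libraries (orange); circles, squares and triangles are libraries 1, 2 and 3, and lines are group means. Mcm2 relative to Mcm3 to Mcm7 is near 1.64 in every control and near 0.856 in every K5-RANKL library.

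The genes that were scarce in controls tended to have the higher fold changes. Across the 53 genes the log2 fold change and the log2 control level per kilobase had a Pearson r of −0.69 and a Spearman rho of −0.66. This is a description over genes, which are not independent replicates, and the control libraries enter both measures. The 5 genes with the lowest control levels per kilobase were Orc1, Mcm10, Pole, Cdc6 and Ccne2, at means of 0.115 to 0.237 CPM per kilobase.

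The K5-RANKL libraries differed among themselves in a way shared by these genes. Set against the mean of the remaining pair of its group, K5-RANKL 1 stood above in 49 of 53 genes (median log2 difference 0.25) and K5-RANKL 2 below in 48 of 53 (median −0.31). K5-RANKL 3 was above in 41 of 53, by a median of 0.10. Controls differed less, with medians of −0.04, −0.00 and 0.06. Over all tested genes the K5-RANKL medians were within 0.01 of 0. Without K5-RANKL 2, 44 genes rose and 2, Orc4 and Pold2, fell, and the median was 1.12. The mitotic list differed between these libraries in the same order, at 0.37, −0.56 and 0.17, with 24 of 24 genes below in K5-RANKL 2.

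Some cell type markers followed the same order of libraries and others did not. The 5 basal epithelial markers (Krt5, Krt14, Krt15, Krt17 and Trp63) had medians of 0.58, −0.92 and 0.35 in K5-RANKL 1, 2 and 3, and summed levels of 972, 439 and 886 CPM. The 6 acinar markers went the other way, at −0.19, 0.43 and −0.28. The median of the fibroblast markers was also lowest in K5-RANKL 2 and highest in K5-RANKL 1, by less (0.25, −0.17 and −0.04). Of these 5 markers, 3 lay below in K5-RANKL 2 and 2 above. Pdgfra (47.9, 54.1 and 51.3 CPM) and Lum (50.1, 54.7 and 52.2 CPM) were highest in K5-RANKL 2 and lowest in K5-RANKL 1. The microfold cell median was again lowest in K5-RANKL 2 and highest in K5-RANKL 1 (0.07, −0.13 and 0.06). Duct markers stood at 0.04, −0.06 and 0.04. In K5-RANKL 2 the medians of T cell, B cell, macrophage and endothelial markers were 0.13, 0.12, 0.03 and −0.02. Whether the levels of the replication genes follow the share of any cell type was not tested.

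**Figure D5:**
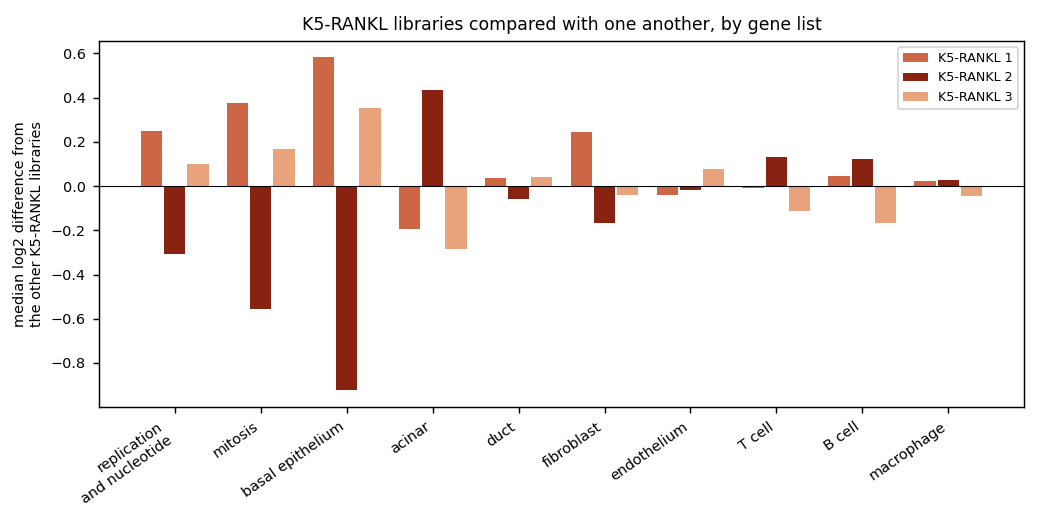
Median log2 difference (y axis) of each K5-RANKL library from the mean of the remaining pair of its group, for the 53 replication and nucleotide genes, the mitotic list and 8 lists of cell type markers (4 to 6 genes each). K5-RANKL 2 is low for the replication (−0.31), mitotic (−0.56) and basal epithelial (−0.92) lists and high for the acinar list (0.43).

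Between the groups, markers of several cell types that can divide moved with these genes, and their part in the result was not tested. As background, 34.2% of all tested genes were called higher and 32.1% lower. All 5 basal epithelial markers rose, with summed levels of 98.6 to 104 CPM in controls against 439 to 972 CPM in K5-RANKL libraries. All 5 macrophage markers rose (286 to 351 against 1990 to 2107 CPM), as did all 4 dendritic cell markers (24.8 to 28.8 against 109 to 117 CPM) and all 5 fibroblast markers (334 to 498 against 2389 to 2891 CPM). Among the fibroblast markers the collagen genes Col1a1, Col1a2 and Col3a1 rose by 2.86, 2.54 and 3.13, but Pdgfra and Lum by 0.69 and 0.28. Of 6 T cell markers 4 rose and 2 did not pass (58.0 to 65.2 against 111 to 125 CPM). Of 5 B cell markers 1 rose and 4 did not pass (102 to 114 against 115 to 129 CPM). Among 4 markers of germinal centre B cells, a rapidly dividing type, Gcsam and S1pr2 rose by 1.41 and 0.92, and Rgs13 and Mef2b, at 0.29 and 0.34, did not pass. Lymph node stroma markers rose in 4 of 4 tested (104 to 131 against 298 to 320 CPM), and Ccl21a was listed at 0 in every library. All 4 microfold, all 3 neutrophil and all 3 mast cell markers found also rose. Of 4 endothelial markers 2 rose and 1 fell, of 4 plasma cell markers 1 rose and 2 fell, of 6 duct markers 3 rose and 3 fell, and of 3 myoepithelial markers 2 fell. All 6 acinar markers fell. None of the 4 skeletal muscle markers passed, though every K5-RANKL library lay above every control in all 4 (36.3% of all tested genes). Their summed levels were 61.3, 7.46 and 79.5 CPM in controls against 139, 157 and 100 CPM in K5-RANKL libraries. Without control 2, 3 of the 4 were called higher. Alas2, the 1 tested erythroid marker, did not pass, with the 4 globin genes listed at 0.

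Other genes of the replication fork and of origin firing, from a list that holds none of the 53, moved mostly the same way: 20 of 28 rose and 3 fell, 5 did not pass, and the median was 0.82. Of all tested genes 34.2% were called higher and 32.1% lower. Pclaf, encoding a PCNA-binding factor, rose by 2.21 (SE 0.18), and the nuclease and helicase gene Dna2 by 1.99 (SE 0.21). The 3 that fell were Pole3, Rnaseh2b and Rnaseh2c, at −0.29, −0.29 and −0.75, the first with an edgeR adjusted p of 0.0475. Only 1 of the 28 was called lower with DESeq2 or without control 1, K5-RANKL 2 or K5-RANKL 3, 2 were with voom, without control 3 or under either other filter on low counts, and none was by library totals. Of 10 other chromatin copying factors 9 rose and 1 did not pass (median 0.64). The remodeller gene Hells rose by 2.03 (SE 0.16) and the histone chaperone gene Nasp by 1.04 (SE 0.11).

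Other E2F, RB family and S phase kinase genes went both ways, 12 of 19 rising, 4 falling and 3 not passing (median 0.49). For this and the next lists, the shares of all tested genes were 34.2% higher and 32.1% lower. Cdkn1a, encoding the CDK inhibitor p21, which halts the cycle, rose by 3.26 (SE 0.12), from 5.62, 3.93 and 4.85 CPM in controls to 50.7, 42.5 and 45.0 CPM in K5-RANKL libraries (edgeR adjusted p = 4.93e-13). Rbl1, an RB family gene, rose by 1.25 (SE 0.12). The 4 that fell were Cdc25a, the phosphatase gene that activates S phase kinases (−0.82), Cdkn1c (−0.62), Tfdp2 (−0.41) and Rbl2 (−0.33), and by library totals none of the 19 fell. Of 9 fork checkpoint genes 2 rose and 2 fell (median 0.13). Chek1, the checkpoint kinase gene, rose by 1.33 (SE 0.28) and Atrip stood at −0.55 (SE 0.13), called lower. By library totals all 9 were called higher, as were 83.5% of all tested genes. The mitotic list, by comparison, had 24 of 24 genes higher with a median of 2.47, and Foxm1 and Kif20a rose by 2.22 and 2.48. Whether the mitotic list rose more than the replication genes was not tested.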

How the data were processed

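Per the labels' protocols, 250 ng of RNA went into each TruSeq Stranded mRNA library. Reads were aligned with STAR to mm10, per the submitters' processing notes; counting tool, annotation and strand setting: not given in the sources used here. The authors deposited raw read counts per gene, without normalization. Groups follow the genotype label, and replicates are numbered in order of deposition.

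Counts were filtered (filterByExpr, minimum count 10), scaled by TMM and tested with edgeR 4.0.16 (robust quasi-likelihood, two-sided, all 6 libraries, Benjamini-Hochberg over 14044 genes) in R 4.3.3. Standard errors are the log2 fold change divided by the root of F. CPM are means ± SD of 3 libraries. The test was also run on simulated counts, with a small part of the genes changed in random directions. That run does not bear on the choice of scaling, and its outcome is not given here. Alternatives used other scalings and filters, DESeq2 1.42.0, limma 3.58.1 voom, and omission of each library. Positions and promoters are RefSeq GRCm38.p6, by Entrez identifier; exon lengths are GENCODE's for GRCm38. Differences between libraries of a group are on log2(CPM + 0.5). Within groups, library pairs differed by a chi-square per gene of 6.26 to 38.3, so none is a second copy of another.

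The genes, lists, motifs and tests were chosen with earlier results of these data known. Full statistics are given for the gene of smallest p in each role, for the highest and lowest fold change, and for genes that fell or did not pass; other pathway lists give their 2 called genes of smallest p. Further genes were chosen after their values were seen. The value of 1 marker gene is not reported here.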

Additional observations from a re-analysis of the deposited data

How the results depend on the processing

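Under 9 other settings of scaling, filter or test and 6 omissions of 1 library, the median log2 fold change of the 53 genes stayed between 0.97 and 1.13 above that of all genes tested. From 42 to 45 genes were called higher, except by library totals, where all 53 were higher, none lower, and their median was 2.06. By library totals 11733 of all 14044 genes tested (83.5%) were higher and 698 lower. That scaling also gave the low ends of the ranges of adjusted p for Orc4, Pold3, Rfc4, Fen1 and Rpa1. In the omissions of 1 library, 1 to 2 genes were called lower, the median was 0.98 to 1.15, and 4444 to 4764 of all genes were higher and 4144 to 4466 lower. With quality weights in voom 2 were lower. At least 50 counts in 3 libraries left 50 of the 53 genes tested. Among genes near 0, Orc3 turned to −0.0030 by upper-quartile scaling, −0.0061 without control 1 and −0.012 without K5-RANKL 2 (−0.012 to 0.038 over the omissions), and Rfc1 (−0.071 to 0.050) to 0.050 without control 2, 0.016 without K5-RANKL 3 and 0.97 by library totals. By library totals Orc4, Orc5 and Pold2 turned to 0.82, 0.77 and 0.58, because that scaling moves the median of all genes from 0.01 to 1.01. No paired analysis was possible because the labels give no replicate numbers that tie controls to K5-RANKL libraries.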

Other observations

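The wider nucleotide synthesis pathway went both ways. Of 27 other enzymes of purine, pyrimidine, folate and deoxynucleotide metabolism, 8 rose, 12 fell and 7 did not pass (edgeR, adjusted p under 0.05). The median log2 fold change was −0.15. On the same TMM scale 34.2% of all tested genes were called higher and 32.1% lower. By library totals 24 of the 27 rose and none fell, where 83.5% of all tested genes were called higher. The list was not tested against the 5 supply genes. Samhd1, encoding an enzyme that breaks down deoxynucleotide triphosphates, had the smallest p of this list. It stood at 55.1, 61.4 and 59.1 CPM in controls and at 186, 169 and 182 CPM in K5-RANKL libraries, and rose by 1.61 (SE 0.08, edgeR adjusted p = 7.8e-12). Impdh1, encoding an enzyme of guanine nucleotide synthesis, stood at 83.1, 76.1 and 88.6 CPM in controls and at 42.7, 45.1 and 38.1 CPM in K5-RANKL libraries (−0.98, SE 0.08, edgeR adjusted p = 1.61e-08). The groups did not overlap for either gene. Shmt1, Dck and Ctps rose by 0.85, 0.83 and 0.75, and Dctd, Mthfd2 and Cad fell by 1.04, 0.89 and 0.54. These 6, and Rrm2b, were chosen after their values were seen.

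Rrm2b encodes the small subunit of ribonucleotide reductase that works outside S phase. It stood at 17.7, 16.2 and 16.9 CPM in controls and at 10.5, 14.3 and 12.7 CPM in K5-RANKL libraries (−0.44, SE 0.12, edgeR adjusted p = 0.00284). The counts of Rrm2 relative to Rrm2b, which no scaling touches, were 0.411, 0.473 and 0.472 in controls against 2.87, 1.29 and 2.18 in K5-RANKL libraries. In every control Rrm2b had more counts than Rrm2, and in every K5-RANKL library the order was the reverse.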
